A study of Mus musculus with 2207 samples.

Results

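Oligodendrocytes of *Ehmt1*Δ/+ cortex were compared with and without the neuronal driver of the *Ehmt1* transgene. The nuclei are those with the cell type label oligodendrocyte in 384-well plates, 67 from the pool labelled *Ehmt1*Δ/+; iTg and 46 from the pool labelled *Ehmt1*Δ/+, of 2207 nuclei measured in all. Both pools came from cortex of C57BL/6 mice aged 14 weeks. All had been given 2 doses of tamoxifen, each of 100 mg/kg, from the age of 3 weeks and, per the study's methods, 1 week apart, and the study states that its animals were males. Mice of the first pool carried *Ehmt1*Δ/+, *Ehmt1* iTg and *CamKII-CreER*, and mice of the second carried *Ehmt1*Δ/+ and *Ehmt1* iTg with no *CamKII-CreER* in the label, while the study's text places this plate series in its *CamKII-CreER* group. Whether the mice of the second pool carried the driver is therefore not settled here, and the labels were followed. Other pools of the same plate format were *Ehmt1*+/+ with iTg and *CamKII-CreER* (+/+; iTg, 71 oligodendrocyte nuclei) and *Ehmt1*+/+ with iTg but no driver in the label (+/+, 69 nuclei). A separate set of 96-well plates held pools labelled WT (73 oligodendrocyte nuclei) and *Ehmt1*Δ/+ (71 nuclei). The labels of these plates give the same age and the same tamoxifen doses as above.

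GLP, the product of *Ehmt1*, forms a complex with G9a, the product of *Ehmt2*, and methylates histone H3 at lysine 9. The iTg allele places FLAG-tagged *Ehmt1* behind a general CAG promoter at the *Rosa26* locus, where it is silent until Cre removes a stop, and *CamKII-CreER* supplies Cre in forebrain neurons after tamoxifen. Oligodendrocytes make the myelin sheaths of axons, and in adult cortex most of them express a large set of myelin protein and lipid genes. They are not among the cells in which this driver is known to act, so the pair asks what differs in a cell type where induction is not known to occur. Each genotype was 1 pool of 3 mice, the labels do not say which mouse a nucleus came from, and nuclei are not replicates, so the ratios below compare pools and carry no test unless one is named.

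Nuclei were measured by RamDA-seq, a random-primed method that reads whole nuclear transcripts, and values are RPKM (reads scaled to the exon length of the gene and to the read total of the nucleus). Recovered read totals ran from 20234 to 205310 reads (median 49635) in *Ehmt1*Δ/+ oligodendrocytes and from 17531 to 148424 (median 54250) in *Ehmt1*Δ/+; iTg. A median of 4770 and 5859 genes were above 0 per nucleus. After each nucleus had been thinned to 33073 reads, the medians were 3780 and 4431 genes, against 3936.5 in +/+ and 3617 in +/+; iTg. Left out were 9 and 15 nuclei of the pair with fewer whole reads than this over the genes of known exon length. The label held in both pools. Every nucleus had at least 12 of 16 oligodendrocyte markers above 0, and their summed RPKM lay between 3079 and 8279 in *Ehmt1*Δ/+ and between 3181 and 8384 in *Ehmt1*Δ/+; iTg. In neurons of the same 2 pools the same sum was at most 179.99 and 119.3. The microglial markers *C1qa*, *C1qc*, *Tmem119* and *Inpp5d* were at 0 in both oligodendrocyte pools. Sample titles hold a code before the well name, and the labels do not say what it stands for. Both pools and the +/+; iTg pool carry 1 such code and the +/+ pool carries another. Under the shared code 360 well names occurred in both pools of the pair, so they filled separate plates, and plate and genotype cannot be told apart.

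*Ehmt1* itself was not higher in oligodendrocytes with the driver. The gene lies on chromosome 2 of mm10 from 24789928 to 24919614, and its value ran from 0 to 85.5 RPKM (median 31.1) over *Ehmt1*Δ/+ nuclei and from 0 to 99.4 (median 25.1) over *Ehmt1*Δ/+; iTg nuclei. The pool means were 32.6 and 28.3 RPKM, a log2 ratio of −0.20, and both pools overlapped over nearly their whole range. *Ehmt1* was above 0 in 44 of 46 nuclei (95.7%, exact 95% interval 85.2 to 99.5) and in 66 of 67 (98.5%, 91.96 to 99.96). These intervals cover counting error only. Neurons of the same pools, the cells in which the driver is known to act where it is present, had means of 31.7 and 33.9 RPKM, a log2 ratio of 0.10, and microglia had 20.8 and 26.4 RPKM. Transgene reads over coding exons would be counted with the endogenous gene, so these values do not separate the 2 sources. In oligodendrocytes of the *Ehmt1*+/+ pools the means were 21.8 RPKM without and 20.9 RPKM with the driver. *Ehmt1* RNA was thus higher in oligodendrocyte pools labelled *Ehmt1*Δ/+ than in those labelled *Ehmt1*+/+. The 96-well plates had the same direction, with 17.5 RPKM in WT and 25.8 RPKM in *Ehmt1*Δ/+ oligodendrocytes. Their neurons had 18.7 and 31.2 RPKM and their microglia 16.8 and 25.1 RPKM. The study reports less GLP protein in *Ehmt1*Δ/+ brain. Values of the whole gene do not show the deleted exons, so they do not check the label, and every direction here rests on the genotype labels.

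*Ehmt2* was lower in the *Ehmt1*Δ/+; iTg pool. Its nuclei ran from 0 to 189.5 RPKM (median 43.4) in *Ehmt1*Δ/+ and from 0 to 141.04 (median 34.9) in *Ehmt1*Δ/+; iTg, with means of 48.3 and 36.97 RPKM and a log2 ratio of −0.39. The share of nuclei above 0 was 93.5% (82.1 to 98.6) and 79.1% (67.4 to 88.1). This direction was not particular to oligodendrocytes. Neurons of the same pools had *Ehmt2* means of 66.2 and 46.95 RPKM, and microglia had 101.6 and 58.7 RPKM. The +/+ and +/+; iTg oligodendrocytes had 54.8 and 53.8 RPKM. *Casp1* and *Il1b*, the inflammatory genes that the study followed in these mice, were at 0 in all nuclei of both pools, and 0 of 46 and 0 of 67 nuclei allow a share with a read of up to 6.52% and 4.48%. *Olig1*, a lineage factor of oligodendrocytes, had means of 44.9 and 67.5 RPKM and was above 0 in 73.9% (58.9 to 85.7) and 95.5% (87.5 to 99.1) of nuclei.

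Libraries of the *Ehmt1*Δ/+; iTg pool stood apart in the base composition of the transcripts they read, in all 3 cell types. For each nucleus, the GC content of annotated transcripts was averaged with the nucleus's reads as weights. Over oligodendrocytes this GC ran from 52.1% to 54.2% (median 53.1%) in *Ehmt1*Δ/+ and from 50.9% to 53.97% (median 51.9%) in *Ehmt1*Δ/+; iTg. Of the 67 *Ehmt1*Δ/+; iTg nuclei, 44 lay below the lowest *Ehmt1*Δ/+ nucleus and 6 above the *Ehmt1*Δ/+ median. The medians of +/+ and +/+; iTg oligodendrocytes were 53.3% and 53.4%. Neurons had medians of 52.7% and 51.3% in the *Ehmt1*Δ/+ and *Ehmt1*Δ/+; iTg pools, and microglia had 53.1% and 51.8%.

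**Figure D1:**
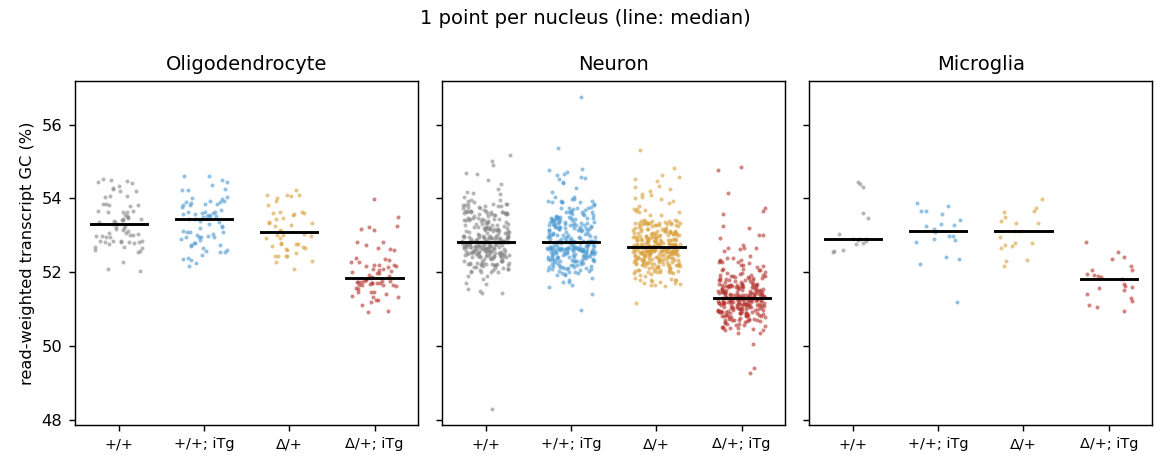
Read-weighted GC content of transcripts (%, vertical axis) in each nucleus of the 4 pools of 384-well plates, by cell type, with 1 point per nucleus and a line at the median. The median of the Δ/+; iTg pool is the lowest in each panel, at 51.9% in oligodendrocytes, 51.3% in neurons and 51.8% in microglia, and the medians of the other 3 pools lie between 52.7% and 53.4%.

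Gene ratios followed this composition. A gene was kept where 20% or more of the nuclei of one of the pools had a value above 0, and 0.1 RPKM was added to each pool mean before the log2 ratio, which understates the ratio of low genes. From the poorest to the richest of 5 equal GC bins, the median log2 ratio of *Ehmt1*Δ/+; iTg to *Ehmt1*Δ/+ was 0.52, 0.28, 0.11, −0.05 and −0.23. In the poorest bin 545 genes were at least 2-fold higher and 27 lower, and in the richest bin 64 were higher and 7.81% of its 1959 genes lower. The same bins had medians from 0.48 to −0.23 in neurons and from 0.49 to −0.05 in microglia of these pools. Between +/+; iTg and +/+ oligodendrocytes every bin lay between −0.09 and −0.05. Across 9795 genes, Spearman's rho of GC and log2 ratio was −0.38 in oligodendrocytes and −0.66 in neurons. This is a description over genes, which share their libraries. Values centred on the median of 20 GC bins are therefore given beside some ratios below as GC-centred, an adjustment added after seeing the data. Ratios given without one are not adjusted for composition, and the part of composition in any one gene's ratio was not tested.

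**Figure D2:**
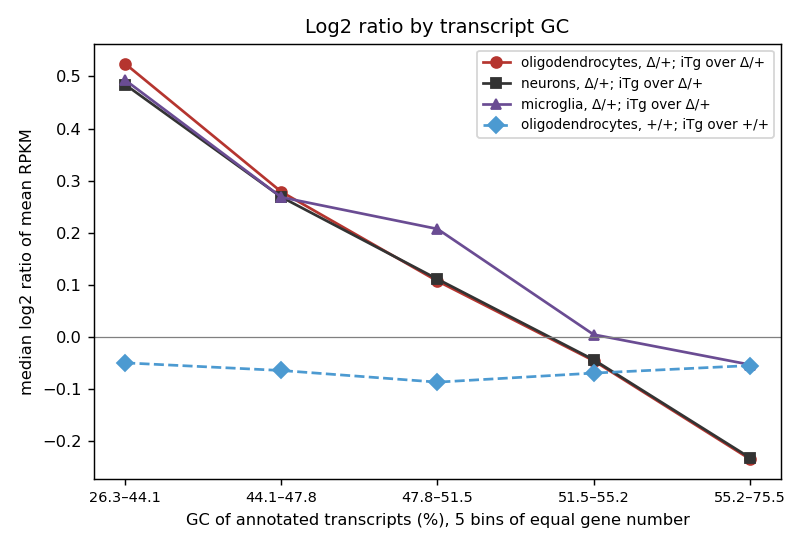
Median log2 ratio of mean RPKM (vertical axis) of the genes in 5 bins of transcript GC (%, horizontal axis). The 3 lines of Δ/+; iTg over Δ/+ run from about 0.5 in the poorest bin to −0.23 in oligodendrocytes and neurons and −0.05 in microglia, and the line of +/+; iTg over +/+ stays between −0.09 and −0.05.

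Of 9817 genes kept, 1246 were at least 2-fold higher (12.7%) and 398 at least 2-fold lower (4.05%) in *Ehmt1*Δ/+; iTg oligodendrocytes. The median of all genes was 0.10, so a gene that follows the bulk is at about that value. Of all genes past 2-fold, 75.8% were higher. This was 65.5% (1043 higher, 550 lower) with the pool means rescaled to a median of 0, 63.1% (867 and 506) GC-centred and 82.9% (1696 and 350) without the highest nucleus of each pool for each gene. Of the 1246 higher genes, 58.7% passed the filter only through the *Ehmt1*Δ/+; iTg pool, and of the 398 lower genes, 44.5% only through the *Ehmt1*Δ/+ pool. These had to differ, they are part of every count and share given here, and the counts are a description only. In the *Ehmt1*+/+ pair, 260 of 8890 genes were at least 2-fold higher (2.92%) and 513 lower (5.77%) with the driver. The genes higher in *Ehmt1*Δ/+; iTg oligodendrocytes had a median log2 ratio of 0.49 in neurons and 0.52 in microglia of the same pools. In the *Ehmt1*+/+ oligodendrocyte pair their median was −0.14, with 6.98% of the 1246 at least 2-fold higher and 15.4% at least 2-fold lower. Of all 9817 genes, 3.67% were higher and 6.66% lower in that pair. In neurons, microglia and that pair, all genes had medians of 0.10, 0.13 and −0.06, and the 398 lower genes −0.10, −0.02 and −0.10.

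Unspliced single-exon loci were the biotype with the highest share of higher genes among those with over 50 members. These are the genes annotated as TEC (loci still awaiting experimental proof), short unspliced models that mostly lie within a protein-coding gene, so that reads from the host's unspliced RNA can be counted for them. Of 405 TEC genes kept, 51.6% were at least 2-fold higher and 1.98% lower, with a median log2 ratio of 1.02. Their median GC was 42.1%, and GC-centred their median was 0.54 with 33.8% higher and 3.21% lower. The median of the same genes was 0.79 in neurons, 0.59 in microglia and −0.35 in the *Ehmt1*+/+ oligodendrocyte pair. Of the 405, 82.5% lay inside a protein-coding gene. Where the host passed the filter too, the TEC genes had a median of 1.12 and their hosts 0.17, with 15 hosts (6.94%) at least 2-fold higher. TEC genes took a median of 1.24% of the reads of an *Ehmt1*Δ/+ oligodendrocyte nucleus and 2.32% of an *Ehmt1*Δ/+; iTg nucleus, against 1.25% in +/+ and 1.035% in +/+; iTg. The protein-coding genes, 7968 in number, had a median of 0.07 with 9.51% higher and 3.84% lower.

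A pair of TEC transcripts with many reads shows the low GC of these loci. *Gm38056* (chr1:55440904-55445930, plus strand, GRCm38) lies within *Plcl1* and has a GC content of 44.2%, and *Gm37111* (chr9:120182564-120183197, plus strand) lies within the span of the gene *Gm38642* and has 41.96%. The myelin gene *Mobp* ends at 120181484 on chromosome 9, shortly before *Gm37111*, so reads that run past its end cannot be told apart from this locus. The first 120 bases of each transcript follow, read from GENCODE M21, in lower case throughout since no part is marked.
Gm38056: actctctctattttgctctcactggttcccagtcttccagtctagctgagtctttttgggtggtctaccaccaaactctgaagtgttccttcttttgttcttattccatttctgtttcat
Gm37111: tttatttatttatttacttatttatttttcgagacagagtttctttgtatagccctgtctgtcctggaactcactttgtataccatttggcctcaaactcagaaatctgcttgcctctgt
*Gm38056* ran from 0.885 to 170.6 RPKM (median 56.5) over *Ehmt1*Δ/+ nuclei and from 2.84 to 445 (median 124.4) over *Ehmt1*Δ/+; iTg nuclei, where 61 of 67 were above the *Ehmt1*Δ/+ median. Its log2 ratio was 1.17, GC-centred 0.85, and 0.84 in neurons. *Gm37111* had means of 97.9 and 268.7 RPKM, a log2 ratio of 1.46 and 0.98 GC-centred, but −0.10 in neurons.

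Some genes that glucocorticoid hormones are known to induce were among those higher in the *Ehmt1*Δ/+; iTg oligodendrocytes. Glucocorticoids act through a nuclear receptor that binds DNA at paired half-sites, and in oligodendrocytes *Sgk1*, a kinase that regulates ion transport, is a well-known target. The list of 30 textbook genes was drawn up after the high ratios of *Sgk1* and *Zbtb16* had been seen, so its counts describe these pools and support nothing. Of the 18 members kept, 7 were at least 2-fold higher and none lower, against 12.7% and 4.05% of all genes. Their median log2 ratio was 0.86 and 0.94 GC-centred, where the median of all genes was 0.10 and 0. The same list had a median of 0.04 in neurons and 0.01 in microglia of the same pools and of 0.42 in the *Ehmt1*+/+ oligodendrocyte pair. GC-centred, 8 of the 18 were at least 2-fold higher and 1 lower, beside 8.83% and 5.15% of all genes. In the *Ehmt1*+/+ pair 4 were higher and 1 lower, beside 3.67% and 6.66%.

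*Sgk1* (chromosome 10, 21882184 to 21999903) ran from 0 to 383 RPKM (median 58.2) over *Ehmt1*Δ/+ nuclei and from 11.9 to 815 (median 348.3) over *Ehmt1*Δ/+; iTg nuclei. It was above 0 in 78.3% (63.6 to 89.1) and in 100% (94.6 to 100) of nuclei. Of the 67 *Ehmt1*Δ/+; iTg nuclei, 29 lay above the highest *Ehmt1*Δ/+ nucleus, and 45 of the 46 *Ehmt1*Δ/+ nuclei lay below the *Ehmt1*Δ/+; iTg median. The means were 92.3 and 348.9 RPKM, which is 3.78-fold higher (log2 1.92, GC-centred 1.69). The +/+ and +/+; iTg oligodendrocytes had means of 31.4 and 152.5 RPKM. In neurons of all 4 pools *Sgk1* lay between 8.31 and 12.5 RPKM and in microglia between 11.5 and 27.5 RPKM. Oligodendrocytes of the 96-well plates, which were deposited in a separate table and read more deeply, had 294.2 RPKM in WT and 343.97 RPKM in *Ehmt1*Δ/+. The order of the 4 pools of 384-well plates was therefore +/+, Δ/+, +/+; iTg and Δ/+; iTg, and neighbouring pools overlapped.

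The promoter of *Sgk1* is shown because the receptor's half-sites can be searched in it. The 250 bases before one of its 6 RefSeq starts (chr10:21993640-21993889, plus strand, GRCm38.p6) hold 1 match to GNACANNNTGTNC, searched on both strands since the motif is its own reverse complement, at −188 from the start and given in capitals.
Sgk1: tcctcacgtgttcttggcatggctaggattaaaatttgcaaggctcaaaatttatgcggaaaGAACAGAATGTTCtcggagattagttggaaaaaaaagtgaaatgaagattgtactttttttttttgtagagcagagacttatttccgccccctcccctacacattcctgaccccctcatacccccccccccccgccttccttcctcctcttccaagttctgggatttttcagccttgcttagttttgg
Of 32851 promoter windows of 300 bases in RefSeq, 0.475% held the motif. Of the list, 26 genes had 39 windows, and 5 windows of 4 genes held it (*Map3k6*, *Mt1*, *Sgk1* and *Fam107a*). *Sgk1* was the only one of these 4 among the members at least 2-fold higher, *Map3k6* and *Fam107a* did not pass the filter, and *Mt1* had means of 7.02 and 12.8 RPKM. A match describes these letters and says nothing of binding.

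*Zbtb16*, a zinc finger repressor, ran from 0 to 57.6 RPKM (median 3.53) over *Ehmt1*Δ/+ nuclei and from 0 to 153.1 (median 43.8) over *Ehmt1*Δ/+; iTg nuclei, and was above 0 in 56.5% (41.1 to 71.1) and 97.01% (89.6 to 99.6). Its means of 14.2 and 50.6 RPKM differ 3.55-fold, and the *Ehmt1*+/+ pair had 12.7 and 30.4 RPKM. *Klf15*, a metabolic transcription factor, was above 0 in 45.7% (30.9 to 60.99) and 89.6% (79.7 to 95.7) of nuclei, with medians of 0 and 35.5 RPKM and means of 14.3 and 47.1 RPKM. *Per1*, a clock gene, ran from 0 to 125.8 RPKM (median 26.5) and from 11.2 to 212.7 (median 65.2), with means of 35.2 and 74.5 RPKM. Both sets of *Per1* nuclei overlapped, but 36 of 46 *Ehmt1*Δ/+ nuclei lay below the *Ehmt1*Δ/+; iTg median. *Tsc22d3*, which encodes the anti-inflammatory factor GILZ, had means of 32.9 and 69.8 RPKM.

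The other members at least 2-fold higher were *Plin4*, a lipid droplet coat protein, with means of 23.4 and 60.5 RPKM, and *Pdk4*, an inhibitor of pyruvate oxidation, with 4.33 and 9.93 RPKM. *Klf9* missed the limit at 13.5 and 26.6 RPKM (log2 0.98). *Sult1a1* and *Irs2* had negative log2 ratios of −0.89 and −0.36, and the receptor's co-chaperone *Fkbp5* did not pass the filter. In the *Ehmt1*+/+ pair the log2 ratio of the 7 higher members was 2.27 for *Sgk1*, 1.25 for *Zbtb16*, 0.77 for *Per1*, 0.59 for *Pdk4*, 0.46 for *Tsc22d3*, 0.39 for *Klf15* and −0.26 for *Plin4*. These members were picked by their ratios in the first pair, so their values in this one are a description.

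**Figure D3:**
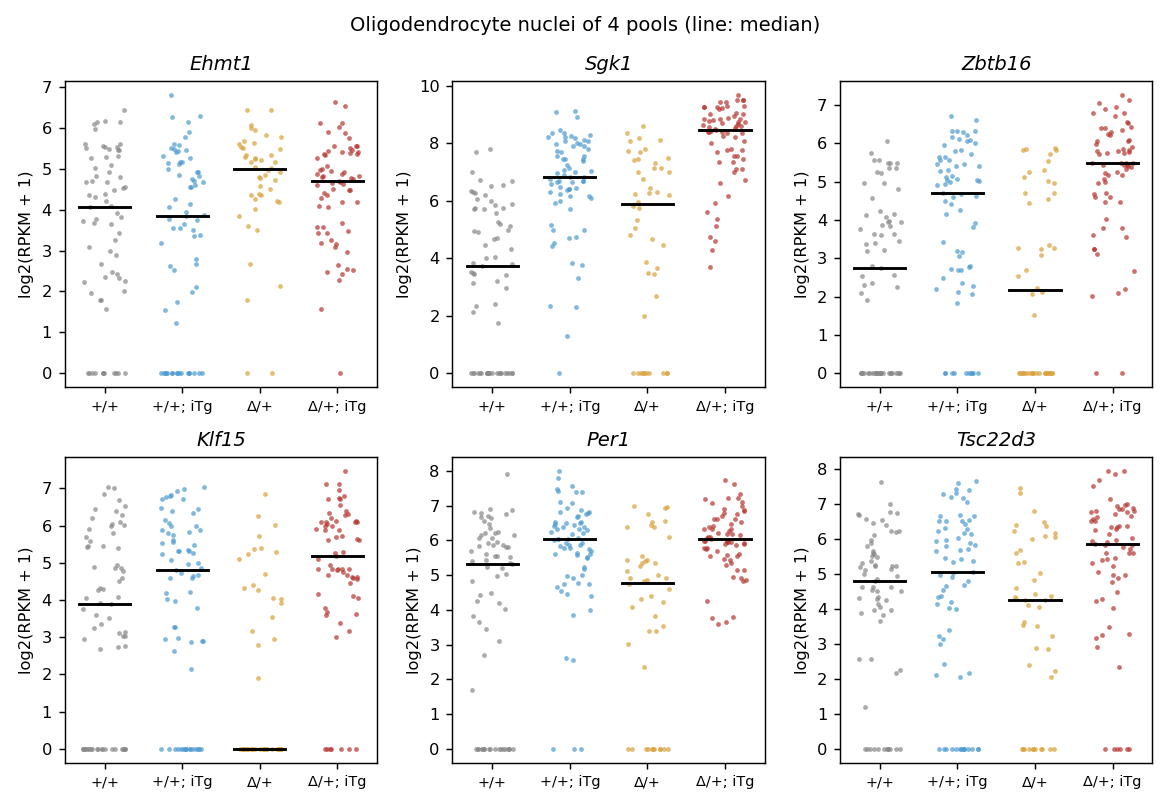
Values of 6 genes in each oligodendrocyte nucleus of the 4 pools of 384-well plates, as log2(RPKM + 1), with 1 point per nucleus and a line at the median. *Ehmt1* overlaps in all pools, and the median of *Sgk1* is 12.3 RPKM in +/+, 111.5 in +/+; iTg, 58.2 in Δ/+ and 348.3 in Δ/+; iTg.

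Oligodendrocyte identity genes gave no common direction. Of the 16 markers 1 was at least 2-fold higher, *Mal*, and none lower, and their median log2 ratio was 0.10 (−0.06 GC-centred). Of 16 oligodendrocyte transcription factors kept, *Tcf7l2* was higher (3.58 and 8.69 RPKM, 2.39-fold) and none were lower, with a median of −0.15. Both lists had a share of higher genes below the 12.7% of all genes. *Sox10*, the lineage's central factor, had a median of 265.5 RPKM (29.2 to 601) in *Ehmt1*Δ/+ nuclei and 163.3 (0 to 475) in *Ehmt1*Δ/+; iTg nuclei, a log2 ratio of means of −0.66 and −0.36 GC-centred. *Sox2* was at 148.5 and 91.3 RPKM (log2 −0.70, GC-centred −0.75). *Myrf*, which switches on myelin genes, was at 241.9 and 249.6 RPKM.

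Myelin genes gave mixed ratios. Of 19 structural myelin protein genes kept, *Mal* and *Tspan2* were at least 2-fold higher and none lower, a share no larger than the 12.7% of all genes, and the median log2 ratio was 0.42, or 0.22 GC-centred and −0.04 in the *Ehmt1*+/+ pair. GC-centred, only *Mal* was at least 2-fold higher and none were lower. *Mal*, a raft protein of myelin, ran from 0 to 277.2 RPKM (median 75.9) in *Ehmt1*Δ/+ and from 31.4 to 569.7 (median 152.5) in *Ehmt1*Δ/+; iTg. Its means were 82.97 and 178.7 RPKM (log2 1.11, GC-centred 1.05), and 17 of 46 *Ehmt1*Δ/+ nuclei lay below every *Ehmt1*Δ/+; iTg nucleus. *Tspan2*, a tetraspanin, had means of 31.1 and 71.8 RPKM. *Mobp* had medians of 450.2 and 759 RPKM (log2 of means 0.72, GC-centred 0.77), *Mbp* 667 and 960.1 RPKM (0.39 and 0.47), and *Cldn11*, the tight junction protein of myelin, had means of 283.4 and 508 RPKM (0.84 and 0.77). *Mag*, an adhesion protein of the inner myelin layer, went the other way, from 739 to 2503 RPKM (median 954) against 326.5 to 2115 (median 830.5), with a log2 ratio of −0.38, and 25 of 67 *Ehmt1*Δ/+; iTg nuclei lay below the lowest *Ehmt1*Δ/+ nucleus. *Opalin* (−0.26) and *Mog* (−0.16) were also below 0.

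**Figure D4:**
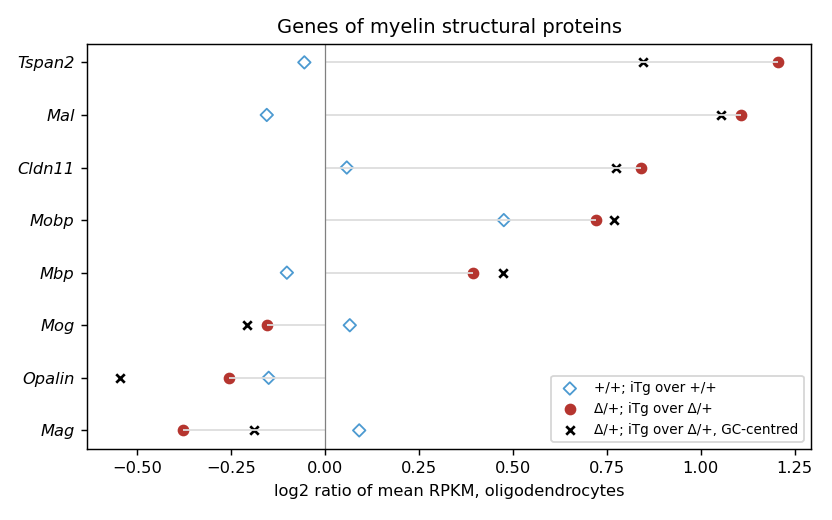
Log2 ratio of mean RPKM (horizontal axis) of 8 genes of structural myelin proteins. Filled points are Δ/+; iTg over Δ/+, crosses the same values GC-centred and open diamonds +/+; iTg over +/+. The filled points of *Tspan2* and *Mal* lie past a log2 ratio of 1, and of the crosses only that of *Mal* does. *Mag* lies lowest at −0.38, and *Mobp* lies at 0.72 and at 0.77 when GC-centred.

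Enzymes of myelin lipids had 3 of 21 members at least 2-fold higher and none lower, with a median of 0.07, which is near the 12.7% and 0.10 of all genes. They were *Scd1* and *Scd2*, desaturases that make monounsaturated fatty acids, and *Degs1*, which completes ceramide. *Scd2* ran from 17.2 to 287.9 RPKM (median 94.4) and from 10.5 to 706 (median 223.7), with means of 113.5 and 241.5 RPKM (log2 1.09, GC-centred 1.037), and 23 of 67 *Ehmt1*Δ/+; iTg nuclei lay above the highest *Ehmt1*Δ/+ nucleus. *Fa2h* and *Cers2*, which make the hydroxylated and very long-chain lipids of myelin, were at 164.3 and 163.1 RPKM and at 145.02 and 122.5 RPKM. Of 20 cholesterol synthesis genes, *Sc5d* alone was past 2-fold (3.42 and 7.09 RPKM), and the median was 0.07. Paranode and axon contact genes had 1 of 15 higher, *Cntn1* at 1.33 and 2.78 RPKM, and a median of −0.07. Channels and transporters of oligodendrocytes had 1 of 13 higher, *Kcnab1*, and a median of 0.43, and the potassium channel *Kcna1* had means of 169.5 and 280.5 RPKM. The shares of higher genes in the cholesterol, paranode and channel lists were all below the 12.7% of all genes. GC-centred, none of the members of these 3 lists was past 2-fold.

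Partners of GLP and other chromatin genes showed few large ratios. Of 11 members of the GLP and G9a list kept, *Cbx1*, *Cbx3* and *Mphosph8*, readers of methylated H3 lysine 9, were at least 2-fold higher and none lower, all with means under 7 RPKM, and GC-centred none were past 2-fold. In the *Ehmt1*+/+ pair 2 of them were at least 2-fold lower with the driver, *Cbx1* (5.98 and 1.66 RPKM) and *Cbx3* (3.99 and 1.81 RPKM). Of all genes in the *Ehmt1*Δ/+ pair, 12.7% were higher and 4.05% lower. None of 14 other H3K9 enzymes and none of 11 chromatin genes linked to syndromes like Kleefstra syndrome were past 2-fold, with medians of −0.18 and −0.26. *Kmt2d* was at 92.6 and 64.7 RPKM. No germline gene passed the filter, and the clustered protocadherins had none of 9 past 2-fold and a median of −0.30.

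Some stress genes are also in the glucocorticoid list. Of 16 heat shock and stress genes kept, *Sgk1*, *Tsc22d3*, *Hspa5*, *Dnaja1* and *Xbp1* were higher and *Txnip* lower, with a median of 0.37 and 0.48 in the *Ehmt1*+/+ pair. GC-centred, 4 of the 16 were at least 2-fold higher and 1 lower. Beside this and the other lists of this paragraph, 12.7% of all genes were higher and 4.05% lower in the *Ehmt1*Δ/+ pair. *Hspa5*, the chaperone of the endoplasmic reticulum, had means of 4.83 and 10.5 RPKM, and *Xbp1*, a factor of the unfolded protein response, 4.31 and 11.8 RPKM. In the *Ehmt1*+/+ pair their log2 ratios were 0.51 and 0.24. Of 7 disease-associated oligodendrocyte genes, *Sgk1* and the alarmin *Il33* were higher, *Il33* at 38.9 and 83.2 RPKM (log2 1.09, GC-centred 0.73, −0.30 in the *Ehmt1*+/+ pair). *Il33* was also the only one of 6 inflammasome and interleukin-1 genes past 2-fold, and none of 6 interferon genes and none of 4 immediate early genes were.

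Transcripts of the mitochondrial genome were lower in this pair and higher in the other. Of 15 genes, only *mt-Atp8* was past 2-fold lower (41.1 and 9.44 RPKM), but all 15 ratios were negative, with a median of −0.66. GC-centred, 14 of the 15 were at least 2-fold lower, with a median of −1.39. *mt-Rnr1* ran from 0 to 15415 RPKM (median 2472) and from 44.9 to 9929.9 (median 1081). In the *Ehmt1*+/+ pair all 15 were at least 2-fold higher with the driver, with a median of 1.63. The neurons of the *Ehmt1*Δ/+ and *Ehmt1*Δ/+; iTg pools had a median of −0.71 and the microglia −1.09. Mitochondrial reads in nuclei come from outside the nucleus, and their share of the reads of an oligodendrocyte nucleus had a median of 0.205% in +/+, 0.811% in +/+; iTg, 0.803% in Δ/+ and 0.403% in Δ/+; iTg. *Malat1* had medians of 3004 and 4665 RPKM in the *Ehmt1*Δ/+ and *Ehmt1*Δ/+; iTg pools (log2 0.60, GC-centred 0.13), *Neat1* medians of 157.1 and 192.1 RPKM, and *Rn7sk* means of 1693 and 1650.0 RPKM. Of 27 ribosomal protein genes, *Rplp2*, *Rpl4*, *Rpl32* and *Rps24* were higher and none lower, with a median of 0.21. That share is near the 12.7% of all genes that were higher.

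**Figure D5:**
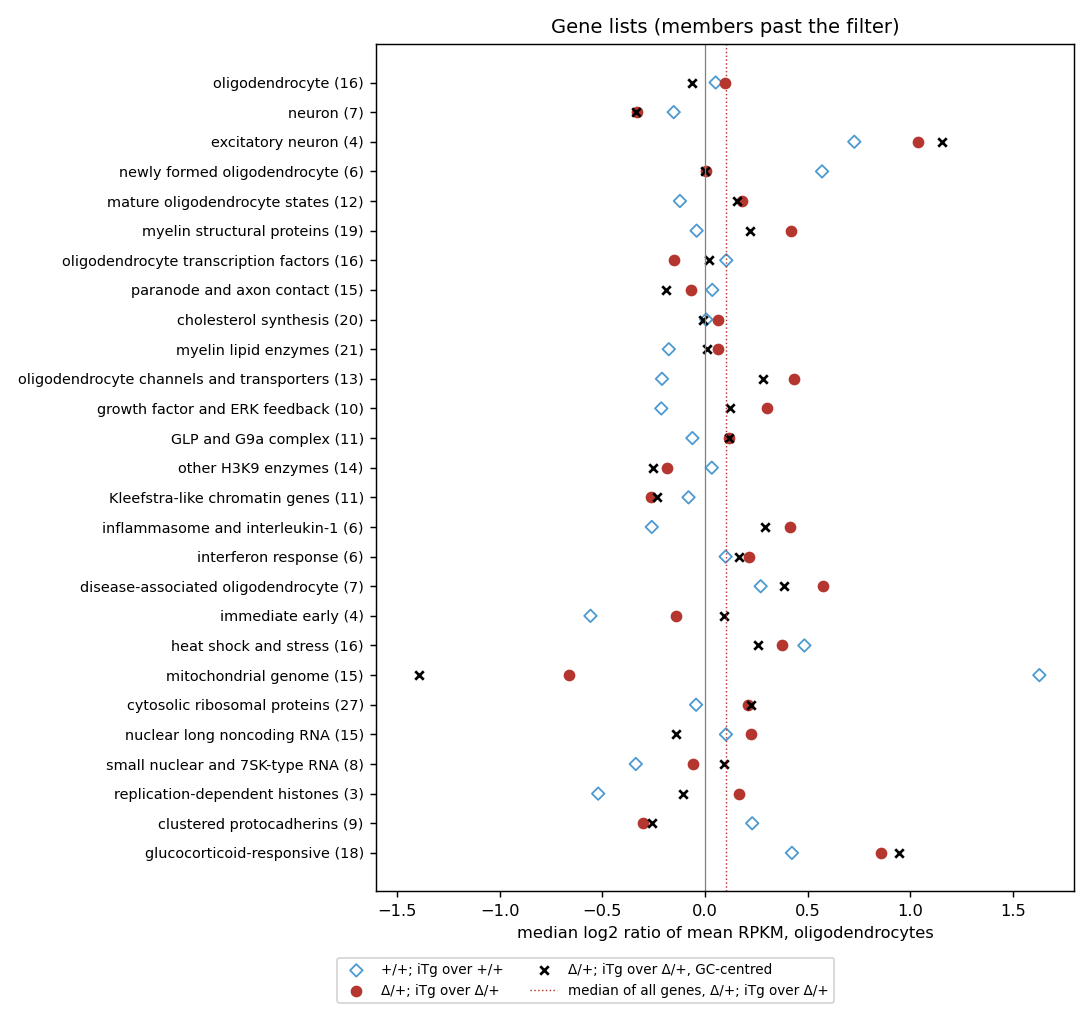
Median log2 ratio of mean RPKM (horizontal axis) over the members of each gene list with 3 or more members past the filter (number in parentheses). Filled points are Δ/+; iTg over Δ/+, crosses the same GC-centred, open diamonds +/+; iTg over +/+, and the dotted line the median of all genes (0.10). The glucocorticoid-responsive list lies at 0.86 and 0.42, and the mitochondrial genome at −0.66 and 1.63.

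Markers of other cell types were at low levels. Of 12 neuron markers 7 were kept, of which *Snap25* and *Syt1* were higher and *Snhg11* lower. *Snap25*, a synaptic vesicle fusion protein, had means of 1.30 and 5.41 RPKM and was above 0 in 19.6% (9.36 to 33.9) and 40.3% (28.5 to 52.996) of nuclei. Of 8 excitatory neuron markers 4 were kept and *Slc17a7* and *Nrgn* were higher. Beside both lists, 12.7% of all genes were higher and 4.05% lower. The summed excitatory markers ran from 0 to 114.97 RPKM (median 6.91) in *Ehmt1*Δ/+ and from 0 to 142.7 (median 16.2) in *Ehmt1*Δ/+; iTg, while the summed neuron markers had medians of 32.4 and 18.5 RPKM with *Stmn2* at 0 in both. Astrocyte marker sums had medians of 2.73 and 10.2 RPKM, with *Aqp4* at 0 in both, and those of oligodendrocyte precursors 33.1 and 65.7 RPKM, a list that holds *Olig1*. With the tenth of nuclei highest in summed neuron and excitatory neuron markers left out, 6 from each pool, 1348 genes were higher and 444 lower. The part of RNA from other cell types in single ratios was not tested.

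The genes with the highest ratios were low and patchy. Those at the top of the ranking included *Lcp1*, *Mucl2*, *Nrgn*, *Sco1*, *Dag1*, *Hmgb3*, *Rpl32*, *Mesd*, *St13*, *E2f6* and *Spry2*, with log2 ratios from 2.92 to 3.92. Of the 12 ranked highest, 11 passed the filter only through the *Ehmt1*Δ/+; iTg pool, all had a median of 0 in both pools, and 3 had a log2 ratio above 0 in the *Ehmt1*+/+ pair. *Lcp1*, an actin-bundling protein of blood cells, had means of 0.106 and 3.01 RPKM, from 1 and 20 nuclei. The lowest were *Polr2g*, *Abat*, *Utp18*, *Adam11*, *Tubg1*, *Bahd1*, *Gria3*, *Arpc3*, *Smyd5*, *Thop1*, *Gipr* and *Adck5*, from −3.15 to −2.33, of which 10 passed only through the *Ehmt1*Δ/+ pool. *Polr2g*, a subunit of RNA polymerase II, was at 12.8 and 1.35 RPKM, from 10 and 4 nuclei, and at 8.20 and 1.51 RPKM in the *Ehmt1*+/+ pair. In that pair, however, 8 of these 12 had a log2 ratio above 0, among them *Tubg1* (9.04 and 13.9 RPKM) and *Gipr* (14.6 and 23.3 RPKM).

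The share of nuclei above 0 differed most, on the higher side, for *Cpm*, *Cept1*, *Klf15*, *Mapkapk5*, *Epm2aip1*, *Zbtb16*, *Dleu2* and *Reep3*. *Cpm*, a carboxypeptidase, was above 0 in 32.6% (19.5 to 48.02) of *Ehmt1*Δ/+ nuclei and 86.6% (76.03 to 93.7) of *Ehmt1*Δ/+; iTg nuclei, with means of 8.50 and 29.5 RPKM (log2 1.78, GC-centred 1.59), and at 16.7 and 19.5 RPKM in the *Ehmt1*+/+ pair. After thinning to equal reads its shares were 32.4% and 84.6%. *Cept1*, an enzyme of choline phospholipid synthesis, was above 0 in 15.2% (6.34 to 28.9) and 59.7% (47.004 to 71.5). On the lower side it differed most for *C2cd3*, *Coq10a*, *Atp13a2*, *Trub1*, *Notch2*, *Csnk1d*, *Snhg11* and *Tnip1*. *Snhg11*, a long noncoding RNA abundant in neurons, was above 0 in 91.3% (79.2 to 97.6) and 65.7% (53.1 to 76.8), with means of 14.85 and 4.76 RPKM. Only 5 of 67 *Ehmt1*Δ/+; iTg nuclei were above the *Ehmt1*Δ/+ median of 13.4 RPKM, and its log2 ratio was 0.45 in neurons and 0.33 in the *Ehmt1*+/+ pair.

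Genes that differ between the *Ehmt1*Δ/+ and WT oligodendrocyte pools of the 96-well plates were read in this pair. Of 391 genes at least 2-fold higher in *Ehmt1*Δ/+ there, 100 passed the filter here, with a median log2 ratio of 0.24, 26 higher and 6 lower. Of 952 genes at least 2-fold lower there, 26.2% passed, with a median of 0.04, 35 higher and 17 lower. The median of all genes was 0.10, and with GC-centred ratios the medians were 0.15 and 0.08. The share of higher genes was 26% and 14.1% in these lists beside 12.7% of all genes. In *Ehmt1*Δ/+ over +/+ oligodendrocytes of the 384-well plates the lists had medians of 0.43 and −0.03. The neuron marker *Snap25* had a mean of 41.3 RPKM in WT oligodendrocytes of the 96-well plates, above 0 in 73 of 73 nuclei. In *Ehmt1*Δ/+ it had 8.88 RPKM, above 0 in 50 of 71. The part of RNA from other cell types in these lists was not tested.

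The only test with more than 1 pool a side set the 2 pools with *CamKII-CreER* against the 2 without, with the *Ehmt1* background as a term and 1 residual degree of freedom. Of 10204 genes tested by limma, 0 (0%) passed an adjusted p of 0.05, and 432 had an unadjusted p under 0.05, 60.4% of them higher with the driver. *Sgk1* had a log2 difference of 2.10 (SE 0.38, limma adjusted p = 0.9999), higher with the driver in both backgrounds. With limma's variance trend, 8 genes passed, among them *Sgk1* (adjusted p = 0.0001767), *Zbtb16* (1.54, adjusted p = 0.04251) and, lower, *Polr2g* (−2.76, adjusted p = 0.04251). The others were *Tubb3* and 4 small or predicted RNAs. *Ehmt1* had a difference of −0.13 (SE 0.37, adjusted p = 0.9999). Of the 2 pools without the driver 1 had the other code in its titles, and the pools of the *Ehmt1*Δ/+ pair share well names. The driver therefore cannot be told apart from that code in the *Ehmt1*+/+ pair or from the plate in the *Ehmt1*Δ/+ pair.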

How the data were processed

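Single-nucleus RamDA-seq values of the 384-well plates were used for the 67 and 46 oligodendrocyte nuclei of 2 pools, with the other pools beside them. Groups and cell types came from the labels. The authors trimmed reads with Fastq-mcf, mapped them to mm10 with HISAT2 2.0.4, counted them per gene with featureCounts of Subread 1.5.0 and a Gencode annotation, set cell types by UMAP clusters and markers, and deposited RPKM for 52636 genes. RPKM are not counts, so the count test first planned was replaced by limma. The strand was not used. The values step by 0.01 of a read, which fits reads shared out among several matches, and genes with close copies or overlaps can share reads. Read totals of each nucleus were recovered from these steps with GENCODE M21 exon lengths (49121 genes). Totals set the precision of single nuclei, in which 1 read of a short gene is already a large RPKM.

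Pool means were compared as log2(mean RPKM + 0.1) over genes with a value above 0 in 20% or more of the nuclei in one of the pools, and a 2-fold difference counted as higher or lower. Shares have exact Clopper-Pearson intervals at 95%, and 3 counts set the limit of a share of 0. Transcript GC came from GENCODE M21 sequences and promoter windows from RefSeq (GRCm38.p6). limma 3.58.1 (R 4.3.3) was fitted on 4 pool means with Benjamini-Hochberg adjustment. Other steps ran in Python 3.11.15 (SciPy 1.17.1, pandas 2.3.3, numpy 2.4.6). On simulated data, limma called 1 of 50 genes at a log2 difference of 1, 31 at 2, 49 at 3 and 50 at 4 among 10204 genes. The simulation gave every gene the same noise, and in the real pools the spread differs between genes. Its rates therefore do not give the power of the real test.

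The nuclei, gene lists and rules were chosen with earlier results of these data known, and the glucocorticoid list and the GC centring after seeing these ratios. The text names the genes that the study follows, the 12 highest and 12 lowest ratios that keep their sign and a log2 size of 1 without the highest nucleus of each pool, the 8 largest gains and losses of detected share, and, of each list, up to 4 members of highest mean and those past 2-fold. Predicted genes, pseudogenes and small RNAs were passed over there (43 and 4 by ratio, 13 and 0 by share), and the TEC loci were named after their values were seen. No nucleus of one pool had the values of a nucleus of the other. Alternatives covered pseudocounts, filters, weighting, thinning, GC and left-out nuclei or pools. Values of a few single genes are not reported here.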

Additional observations from a re-analysis of the deposited data

Results flagged for a closer look

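Transcripts of the mitochondrial genome went opposite ways in both oligodendrocyte pairs, with a median log2 ratio of −0.662 over 15 genes for *Ehmt1*Δ/+; iTg over *Ehmt1*Δ/+ and of 1.629 for +/+; iTg over +/+. Each pool gave 1 value and the difference between the pairs was not tested.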

How the results depend on the processing

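The share of genes past 2-fold depended on the filter and the pseudocount. Against 12.7% higher and 4.05% lower of 9817 genes, 8.34% and 2.57% were past it with 1 RPKM added, 17.7% and 6.97% of 13755 genes with a filter at 10% of nuclei, and 27.4% and 14.4% of 24972 genes with no filter. With limma's variance trend 8 genes passed in place of 0, and leaving out each pool in turn, without the background term, gave 0 to 0. Under the alternatives 98.8% of the list medians and 95.9% of 1440 log2 ratios of named genes moved by less than 1.5-fold, and 18.9% of 746 shares left their interval after thinning or with 2 reads required. Among these named genes and lists, no ratio past 2-fold changed sign. Part of this was set in advance. Rescaling to a median of 0 shifts every ratio by about 0.10, so it could not move any by 1.5-fold. The 12 highest and 12 lowest ratios were picked to keep their sign without the highest nucleus. Of all 1246 higher genes, 800 stayed at least 2-fold higher GC-centred, 819 with 1 RPKM added and 1024 with reads summed. Without the highest nucleus 1238 did. Some of the 398 lower genes likewise did not stay past 2-fold. No paired analysis was possible because each genotype is 1 pool and nuclei carry no numbers that pair them across pools. Depth limits single nuclei, whose lowest total was 17531 reads.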
